A study of Mus musculus with 6 samples.

Results

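Entries of the intronic miRNAs miR-149, miR-128, miR-151, miR-339 and miR-423 were examined in extracellular vesicles shed by apoptotic mouse osteoblasts, the bone-forming cells. Every entry carrying the name of 1 of these 5 families, with any arm or copy suffix, was taken from the deposited table, which gave 11 of 1712 entries. The entries carry the prefix mmu- for mouse (mmu-miR-149-5p, mmu-miR-151-5p, mmu-miR-151-3p, mmu-miR-423-5p, mmu-miR-423-3p and so on), which is left out from here on. Knockout libraries (n = 3, Prx1cre;SIRT6f/f mice) carry floxed alleles of Sirt6, a nuclear deacylase, together with a Cre transgene under the Prx1 enhancer, which acts in the limb mesenchyme lineage. Control libraries (n = 3, SIRT6f/f mice) carry the same floxed alleles and no Cre. The labels give neither the age of the mice nor whether replicates came from separate animals or cultures, and the small RNA table holds no measure of Sirt6 itself. Osteoblasts of both genotypes were induced to undergo apoptosis without serum, and vesicles were pelleted by ultracentrifugation. The families were selected on the knockout against control differences of this table. Differences between the genotypes are therefore a description for these entries, and so are the counts of these entries past a threshold, from which nothing is read.

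An intronic miRNA is transcribed as part of its host gene, and its hairpin is cut out of the primary transcript in the nucleus by Drosha. Dicer then trims the hairpin to a duplex, and either strand, called the 5p or the 3p arm, can be loaded into an Argonaute protein. Bases 2 to 8 of the loaded strand, the seed, pair with target mRNAs. Vesicles from dying cells carry such small RNAs to other cells.

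In GENCODE M21 on GRCm38, the 6 hairpins of these families each lay within an intron of a protein-coding gene, on the same strand as the gene. Mir149 (chromosome 1, 92850378 to 92850443) lies in Gpc1, which encodes the heparan sulfate proteoglycan glypican-1. Mir423 (chromosome 11, 77078064 to 77078172) lies in Nsrp1, which encodes a nuclear speckle splicing regulator. Mir151 (chromosome 15, 73254815 to 73254882) lies in Ptk2, which encodes focal adhesion kinase. Mir339 (chromosome 5, 139369650 to 139369745) lies in 3110082I17Rik, named here only by its clone symbol. miR-128-3p has a pair of source hairpins, Mir128-1 in R3hdm1 (chromosome 1, 128202361 to 128202430) and Mir128-2 in Arpp21 (chromosome 9, 112118636 to 112118711), a gene known for its expression in brain. No other annotated miRNA gene overlapped any of these hairpins on either strand.

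Mature sequences were found in the RefSeq miRNA table (GRCm38.p6) for 9 of the 11 entries. Of the 7 more abundant entries, all but miR-151-5p and miR-151-3p are shown 5′ to 3′ with the seed in capitals, because the seed is what separates or joins the families as regulators.

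miR-149-5p: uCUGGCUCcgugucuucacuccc
miR-339-5p: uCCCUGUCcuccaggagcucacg
miR-423-5p: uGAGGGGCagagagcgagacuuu
miR-423-3p: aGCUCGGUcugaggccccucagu
miR-128-3p: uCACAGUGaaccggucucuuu

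No 2 of these 5 arms had the same seed, and none of the other named entries with a RefSeq sequence had any of these 5 seeds. RefSeq sequences were found for 1304 of the 1528 named entries, and the rest, like the entries with numeric IDs, were not searched. The seed of miR-128-3p overlaps that of miR-27b-3p with a shift of 1 base, as the 8 bases UCACAGUG begin at position 1 of miR-128-3p and at position 2 of miR-27b-3p. The 3p arm of miR-423 shares the 10 bases CUCGGUCUGA with miR-25-3p, outside the seed of miR-25-3p (positions 13 onward). The 9 mature sequences were 21 to 23 nt long. GC content was 47.6% for miR-128-3p, 56.5% to 65.2% for the other arms shown, and 81.8% for miR-149-3p, the highest of the set.

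The 5p arms of the miR-128 hairpins are the part that tells the source genes apart, since the 3p arm is identical in both. They have the same seed, in capitals.

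miR-128-1-5p: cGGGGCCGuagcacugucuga
miR-128-2-5p: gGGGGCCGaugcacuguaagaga

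Mir149 and Mir423 are the contrasting cases of arm use described further on. Their hairpins are shown with the 5p and 3p arms in capitals.

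Mir149: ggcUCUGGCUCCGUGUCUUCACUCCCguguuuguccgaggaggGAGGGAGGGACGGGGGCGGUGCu
Mir423: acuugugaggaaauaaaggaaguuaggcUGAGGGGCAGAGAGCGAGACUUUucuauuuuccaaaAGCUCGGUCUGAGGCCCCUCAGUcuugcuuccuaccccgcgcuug

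The values are RPM, the reads of an entry scaled so that all listed entries of a library sum to 1000000. The depth recovered from the RPM steps was 1608276 to 1838239 reads in knockout and 1352045 to 1627705 reads in control libraries, so 3 reads stand for 1.63 to 2.22 RPM. Entries with a miRNA name took 43.4% ± 5.37 of reads in knockout and 52.4% ± 3.85 in control libraries (SD, n = 3 each), and the rest carried numeric IDs. Knockout replicate 3 had the lowest share, 37.2%, and stood apart from the other two knockout libraries in the levels below. Of 13 mesenchymal marker miRNAs chosen for checking the labelled cell source, 12 were listed, with a summed level of 79418 to 144079 RPM in knockout and 189932 to 218342 RPM in control libraries. Blood cell markers (8 of 9 listed) summed to 259.5 to 485 RPM in knockout and 622.8 to 880.3 RPM in control libraries, and endothelial markers (4 of 4 listed) to 23.39 to 52.23 RPM and 85.08 to 105 RPM in the same order. These sums moved with the levels below, and their part in them was not tested. In bulk vesicle RNA, fewer vesicles that carry a miRNA and fewer copies in each cannot be told apart.

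miR-151 was the most abundant and miR-128 the rarest, and 7 of the 11 entries averaged 10 RPM or more over the 6 libraries. These 7 were lower in the mean of knockout than of control vesicles. For 6 of them every knockout library lay below every control library, as for 143 of the 274 named entries averaging 10 RPM or more (52.2%). miR-149-3p and miR-339-3p, the rarer arms of their hairpins, averaged 3.946 and 4.042 RPM over all libraries, and the miR-128 5p arms were close to the limit of 3 reads.

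**Figure D1:**
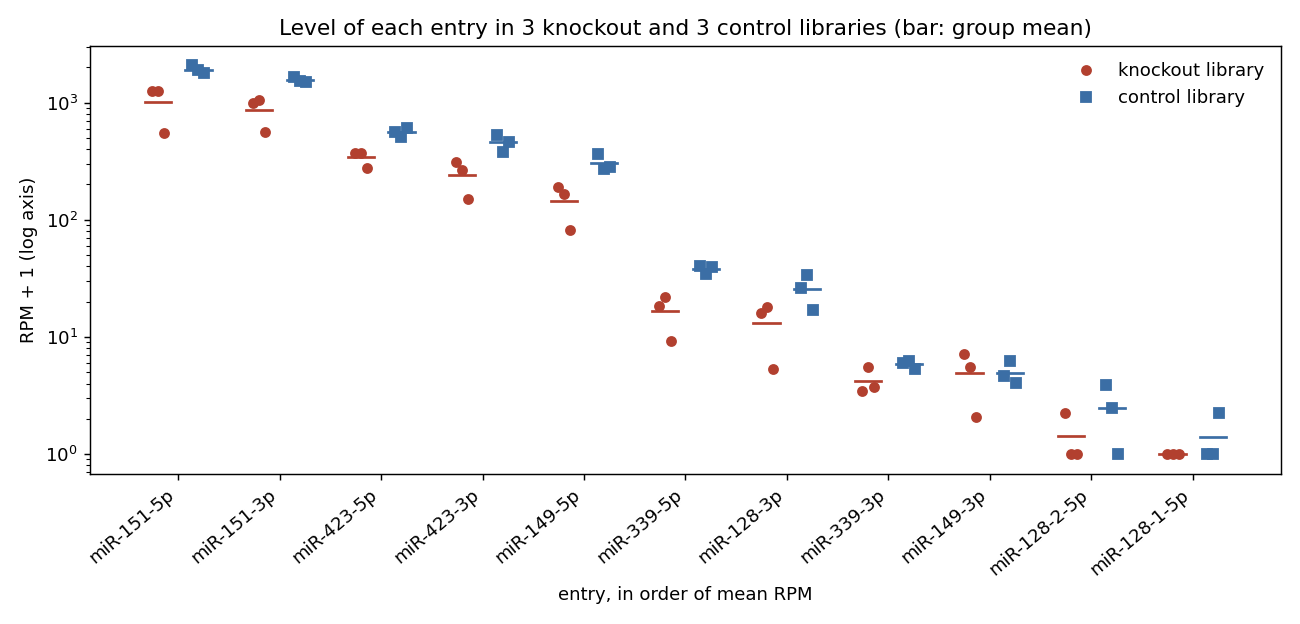
RPM + 1 on a log axis for the 11 entries, ordered by mean RPM, with knockout libraries as circles left of control libraries as squares and a bar at each group mean. Knockout circles lie below control squares for the first 6 entries, and the groups overlap from miR-128-3p onward.

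miR-151-5p, from the Ptk2 intron, had 1243, 1247 and 545.6 RPM in knockout libraries, against 2075, 1886 and 1774 RPM in control libraries. The group means were 1012 ± 403.7 and 1912 ± 152 RPM in the same order (SD, n = 3 each), and it ranked 44th by mean level among the 1528 named entries. The groups did not overlap, and the knockout spread came mainly from the third library, at 28.5% of the control mean against 65.0% and 65.2% in the other two. The difference of log2(RPM + 1) was -1.01 ± 0.29 (SE, limma). An entry's own replicate spread hardly enters this SE or those of the entries below.

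miR-151-3p, the other arm of the same hairpin, had 999.2, 1045 and 556.5 RPM in knockout and 1657, 1521 and 1503 RPM in control libraries. The log2 difference was -0.90 ± 0.29 (SE). Again knockout replicate 3 was the lowest library and the groups did not overlap.

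miR-423-5p, an abundant miRNA often used as a reference in blood assays, had 371.2, 368.3 and 278 RPM in knockout and 564.5, 507.4 and 601.5 RPM in control libraries. Its knockout libraries lay closer together than those of any other of the 7 entries, with a coefficient of variation of 15.6%, and its log2 difference of -0.73 ± 0.29 (SE) was the smallest of the 7. The groups did not overlap.

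miR-423-3p had 307.2, 263.2 and 150.1 RPM in knockout and 530.6, 377.9 and 460.8 RPM in control libraries, with a log2 difference of -0.97 ± 0.29 (SE). The gap between the highest knockout and the lowest control library was narrower than for the 5p arm, at 307.2 against 377.9 RPM.

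miR-149-5p, from the glypican-1 gene, had 187.8, 166.1 and 79.97 RPM in knockout and 366.3, 269.2 and 280.1 RPM in control libraries. The log2 difference was -1.15 ± 0.30 (SE), and of the 274 named entries that averaged 10 RPM or more, 14 had a lower one. All knockout libraries were below all control libraries, with the third at 26.2% of the control mean.

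miR-339-5p had 17.41, 20.9 and 8.16 RPM in knockout and 39.65, 33.28 and 38.7 RPM in control libraries. Its log2 difference of -1.30 ± 0.42 (SE) was the furthest from 0 of the set, and 7 of the 274 named entries had a lower one. It rested on 15 to 37 reads in knockout and 45 to 63 reads in control libraries.

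miR-128-3p, best known as a brain miRNA, had 14.92, 16.95 and 4.352 RPM in knockout and 25.23, 32.54 and 15.97 RPM in control libraries. The groups overlapped, since the second knockout library was above the third control library. The log2 difference was -1.10 ± 0.46 (SE), and -0.54 without knockout replicate 3. Neural markers were near the detection limit: 3 of 9 were listed (miR-9-5p, miR-153-3p and miR-218-5p), with a sum of 4.896 to 15.82 RPM in knockout and 2.457 to 8.136 RPM in control libraries.

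The remaining 4 entries were low. miR-339-3p had 17 reads over the knockout libraries and 21 reads over the control libraries, at 3.242 ± 1.112 and 4.842 ± 0.4731 RPM in the same order (SD, n = 3 each). miR-149-3p had 20 and 17 reads over the same groups, at 3.942 ± 2.613 and 3.951 ± 1.095 RPM. It was the steadiest entry between the genotypes, with a log2 difference of -0.16 ± 0.69 (SE), though at this depth a change in either direction was not detectable. Without knockout replicate 3 the difference was 0.37, and it was 0.01 when scaled to named entries.

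Of the arms that separate the miR-128 hairpins, miR-128-2-5p, from the Arpp21 intron, had 2 reads over the knockout and 6 reads over the control libraries. The exact Poisson intervals were 0.05 to 1.38 RPM and 0.50 to 2.99 RPM, and they cover counting error of the recorded reads only. miR-128-1-5p, from the R3hdm1 intron, had 0 reads over the knockout libraries, and 2 reads over the control libraries. If taken as complete counts, the 0 reads allow up to 0.58 RPM by the limit of 3 reads over the group. The upper bound of the exact Poisson interval is 0.71 RPM. No library held an entry at 1 read, so a 0 may stand for 1 read that is missing. The upper limits of both miR-128 5p arms may therefore be too low. The source of the miR-128-3p reads was therefore not resolved at this depth. Because the 3p arm is identical in both hairpins, miR-128-3p reads of both genes are counted together.

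The order of the mean levels was the same in both genotypes down to miR-128-3p, with miR-151-5p first and then miR-151-3p, miR-423-5p, miR-423-3p, miR-149-5p, miR-339-5p and miR-128-3p. In knockout libraries the ranges of miR-151-5p and miR-151-3p, of miR-423-5p and miR-423-3p, of miR-423-3p and miR-149-5p, and of miR-339-5p and miR-128-3p overlapped. In control libraries only miR-423-5p and miR-423-3p did among these neighbours. Below miR-128-3p no order could be read.

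The entries were then placed against the whole table. Of the 11 entries, 10 passed the filter of at least 1 RPM in at least 3 libraries, and 5 passed the threshold as lower in knockout (limma on log2(RPM + 1), Benjamini-Hochberg adjusted p under 0.05 over all tested entries). They were miR-149-5p, miR-151-5p, miR-151-3p, miR-339-5p and miR-423-3p. miR-423-5p, miR-128-3p and the 3 tested low entries did not pass. Over the table, 30 of 1114 entries passed as lower (2.69%) and 24 as higher (2.15%). Among named entries that averaged 10 RPM or more the share passing as lower was 10.6%. All knockout libraries lay below all control libraries for 6 of the 11 entries, against 19.3% of tested entries. These 6 were among the 7 entries averaging 10 RPM or more, against 52.2% of named entries at that level. Because the families were chosen with this contrast known, nothing is read from these counts.

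The calls depended on single libraries and on the scale. Without control replicate 1, 2 or 3 or knockout replicate 2, limma called 0 of the entries, with 6, 6, 6 and 7 of them lower at an unadjusted p under 0.05. Without knockout replicate 1 it called 3, and without knockout replicate 3 it called 4. All 7 entries above 10 RPM stayed below 0 in each of these settings.

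Other miRNAs were lower in knockout vesicles too. The median log2 difference was -0.27 over all 1114 tested entries, -0.59 over the 274 named entries averaging 10 RPM or more and -1.01 over the 7 entries of these families above that level. Without knockout replicate 3 the last 2 medians were -0.37 and -0.62. After scaling each library to its named entries, which left a median of -0.08 over all tested entries, they were -0.32 and -0.73. On that scale limma called 0 of the 11 entries lower, against 0.449% of all tested entries. At an unadjusted limma p under 0.05, 6 of the 11 were lower, against 8.8% of all tested entries. The 6 entries whose groups did not overlap on the RPM scale did not overlap on this scale either. How many entries of the whole table do so on this scale was not counted, so nothing is read from these 6.

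**Figure D2:**
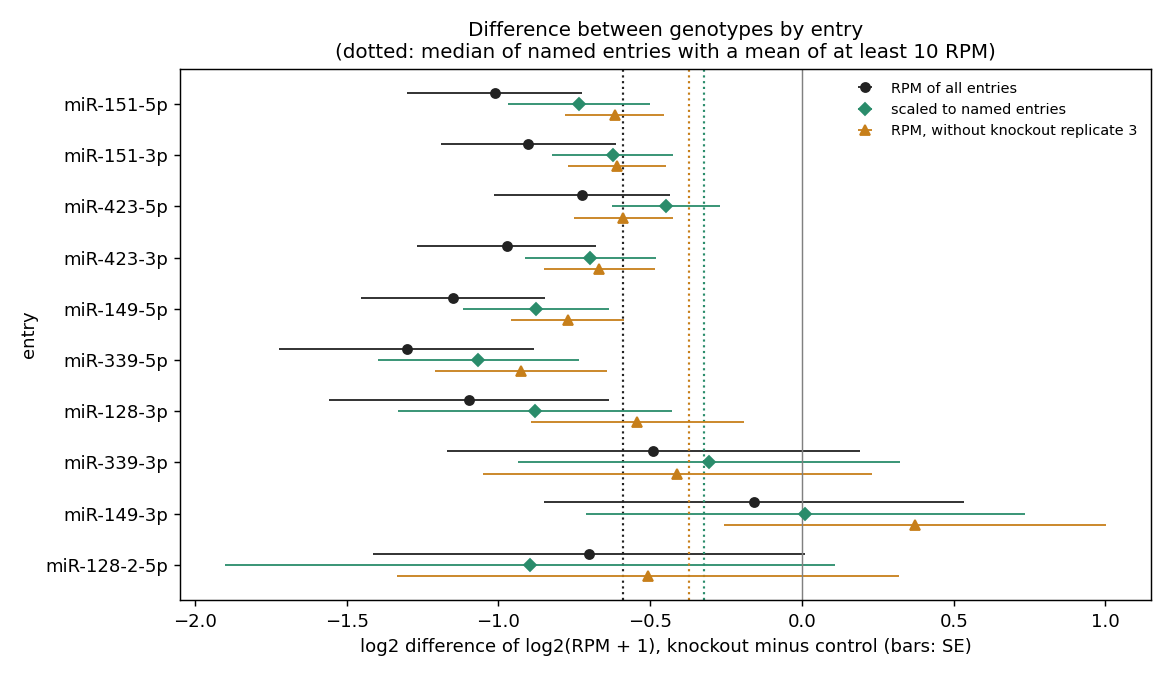
Log2 difference (knockout minus control, bars are SE) of the 10 tested entries from RPM of all entries, from values scaled to named entries, and from RPM without knockout replicate 3, with the median of named entries above 10 RPM dotted in the same colour. The upper 7 entries lie below 0 in all 3 settings (miR-149-5p at -1.15, -0.88 and -0.77), while miR-149-3p moves from below to above 0.

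The libraries of the control group held these families at nearly the same share. Together the 11 entries took 0.689%, 0.664% and 0.437% of the reads of named entries in knockout libraries, against 0.927%, 0.928% and 0.929% in control libraries. Single entries varied more than their sum in the control group. miR-128-3p ranged from 67.3% to 138% of its control mean among the control libraries on the named scale, while miR-151-3p ranged from 97.8% to 102%.

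The knockout libraries fell into a nearby pair and a lower library, replicate 3. In RPM of all entries, the 7 entries stood at 46.8% to 67.3% of their control mean in knockout replicate 1, at 54.4% to 68.9% in replicate 2 and at 17.7% to 49.8% in replicate 3. Scaled to named entries, knockout replicate 3 had 24.8% for miR-128-3p, 30.8% for miR-339-5p and 37.0% for miR-149-5p, but 69.9% for miR-423-5p. On this scale miR-423-5p was thus at a like level in all 3 knockout libraries, at 76.1%, 73.1% and 69.9%, and miR-151-5p was not, at 74.6%, 72.4% and 40.2%. This library also had the lowest share of named entries, and the part of that in these values was not tested.

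**Figure D3:**
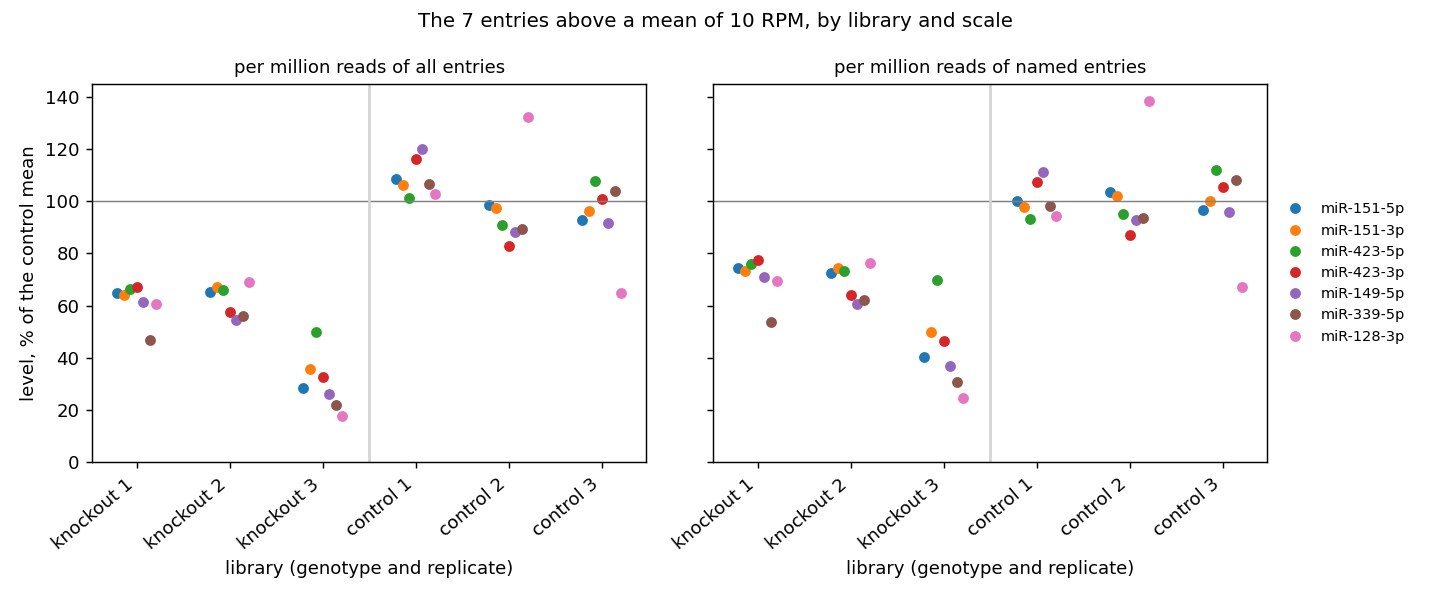
Level of the 7 entries averaging 10 RPM or more in each library as a percentage of the entry's control mean, in RPM of all entries (left) and scaled to named entries (right), with each entry in its own colour. Knockout replicate 3 holds the lowest value of every entry, and miR-423-5p is the entry least reduced there (49.8% left, 69.9% right).

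Arm use was compared within libraries, which does not rest on the genotypes. miR-149 was almost entirely 5p: the 5p arm took 97.6% ± 0.96 of the reads of both arms in knockout and 98.7% ± 0.50 in control libraries (SD, n = 3 each). miR-339 was mostly 5p, at 81.6% ± 6.28 and 88.4% ± 1.75 in the same order. miR-151 and miR-423 had reads of both arms at similar levels. Reads were not set against known amounts of each arm, so these shares and the tests below describe reads and not molecules. Over 36 hairpins of the table with both arms averaging 10 RPM or more, the median size of the log2 arm ratio was 3.1, and 1 and 4 of them had a smaller one than miR-151 and miR-423.

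For miR-423 the 5p share was 54.7%, 58.3% and 64.9% in knockout and 51.6%, 57.3% and 56.6% in control libraries. The 5p arm was the higher in 6 of 6 libraries, with a mean log2 ratio of 0.42 ± 0.27 (SD, n = 6). The exact 2-sided sign-flip permutation p was 0.0312, the smallest that 6 libraries allow, and 0.0417 after Benjamini-Hochberg adjustment over the 4 hairpins tested. miR-149 (mean log2 ratio 5.46 ± 0.64) and miR-339 (2.30 ± 0.58) were also higher in 5p in 6 of 6 libraries, with the same exact permutation p = 0.0312 and the same adjusted p.

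For miR-151 the 5p share was 55.4%, 54.4% and 49.5% in knockout and 55.6%, 55.4% and 54.1% in control libraries. The 5p arm was the higher in 5 of 6 libraries, with a mean log2 ratio of 0.24 ± 0.13 (SD, n = 6, exact permutation p = 0.0625, adjusted p = 0.0625), which did not pass the threshold. In knockout replicate 3 the arms were near equal, at 1003 reads for 5p and 1023 reads for 3p, and the 95% Wilson interval was 47.3% to 51.7%. The intervals cover counting error only and not the spread between libraries.

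**Figure D4:**
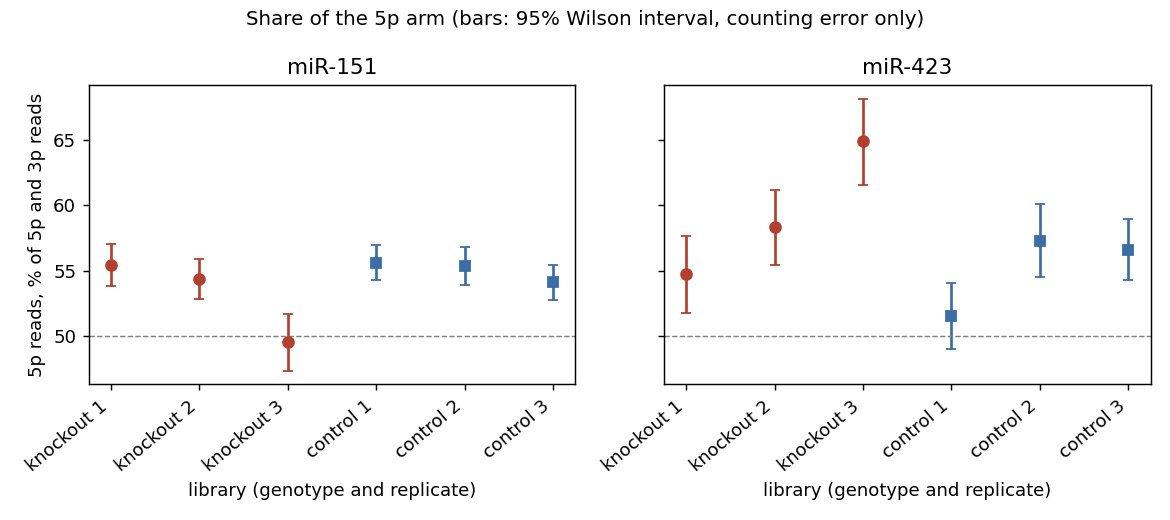
Share of 5p reads among the reads of both arms for miR-151 and miR-423 in each library, with 95% Wilson intervals and a dashed line at 50%. All libraries but knockout replicate 3 lie between 54.1% and 55.6% for miR-151, and all 6 lie above the line for miR-423, up to 64.9% in knockout replicate 3.

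Between the genotypes the arm ratio overlapped for both hairpins. The difference of the log2 arm ratio was 0.25 ± 0.27 (SE) for miR-423 and -0.11 ± 0.25 for miR-151, and neither was among the 2 of 36 hairpins that passed the threshold (limma, 5.56%). The 95% intervals, -0.29 to 0.79 and -0.60 to 0.38, leave room for changes in either direction. Without knockout replicate 3 the values were 0.08 and -0.01. For the pair of hairpins with a rare 3p arm, the log2 ratio was 4.97 ± 0.29 in knockout and 5.96 ± 0.45 in control libraries for miR-149, and 1.90 ± 0.56 and 2.71 ± 0.22 for miR-339 (SD, n = 3 each). On this scale, which adds 1 RPM to each arm, the groups did not overlap. How many other hairpins do so was not counted, so nothing is read from it. The 5p shares of reads did overlap, since the highest knockout library (98.7% for miR-149, 87.5% for miR-339) was above the lowest control library (98.1% and 86.5%). The 3p arms stood at 2 to 10 reads and 4 to 8 reads per library.

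Other miRNAs known from introns of protein-coding hosts were described from a list. Of 110 listed entries, 91 were tested, and 77 (84.6%) lay below 0 with a median of -0.57. Of all tested entries, 60.1% lay below 0. At an average of 10 RPM or more, 96.0% of the listed and 78.8% of the named entries did. In limma, 2 of the 91 passed as lower in knockout, against 2.69% of all tested entries. The 2 were miR-335-3p, whose host Mest is imprinted (162.1 ± 34.96 RPM in knockout and 329.4 ± 38.28 RPM in control libraries), and miR-107-3p, from a pantothenate kinase gene (39.83 ± 15.22 and 83.54 ± 4.62 RPM; SD, n = 3 each). The 4 most abundant did not pass: miR-26a-5p had a log2 difference of -0.78, miR-27b-3p -0.77, miR-152-3p -0.77 and miR-140-3p -0.84. In GENCODE M21 the mature arms miR-27b-3p and miR-140-3p overlapped an annotated exon of a host, while miR-26a-5p and miR-152-3p lay in introns. By annotation, 80 other named entries above 10 RPM lay in an intron of a protein-coding gene on the same strand, with a median of -0.53. Another 23 overlapped an exon of such a gene, with a median of -0.65, and 114 lay in no such gene, with a median of -0.61. The shares below 0 were 78.8%, 69.6% and 78.9% in the same order. Entries were placed by the position of the mature arm. Those without a RefSeq sequence, or with copies in unlike places, were left out of these counts.

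miR-28a and miR-708, intronic miRNAs whose sequences are related to miR-151, had smaller differences. miR-28a-5p had 69.64, 88.69 and 39.71 RPM in knockout and 106, 82.84 and 118.6 RPM in control libraries, so its groups overlapped. The log2 differences were -0.69 and -0.42 for the 5p and 3p arms of miR-28a and -0.62 and -0.55 for those of miR-708, and none passed the threshold. The difference between these and miR-151 was not tested.

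Among 127 other named entries averaging 100 RPM or more, the pattern over the 6 libraries most like that of miR-151-5p was that of miR-27b-3p (Pearson's r of log2(RPM + 1) 0.999), followed by miR-140-3p (0.998). miR-151-3p was most like miR-125b-2-3p (0.998) and miR-140-3p (0.997), and miR-149-5p most like miR-455-3p and miR-199a-5p (0.998 each). miR-423-3p was most like miR-193b-3p (0.999) and miR-199a-5p (0.993), and miR-423-5p had the loosest nearest entries, miR-34b-3p (0.984) and miR-503-5p (0.982). Among the families themselves r was 0.995 between the arms of miR-151 and 0.961 between those of miR-423. These correlations are over 6 libraries that share their depth, the genotype split and the low knockout replicate 3, and they are given as a description.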

How the data were processed

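Small RNA libraries from apoptotic osteoblast vesicles (3 knockout, 3 control) were grouped by their labels. The authors deposited 1 table of RPM values, each column summing to 1000000 over all listed entries, so a rise of an abundant entry lowers the RPM of the rest. The submitters' processing notes name fastp and edgeR, without their roles or versions. Aligner, miRNA annotation and build: not given in the sources used here. All values were whole multiples of 0.5 of the column's lowest value (tolerance 0.001 read), so that value stands for 2 reads, no entry is at 1 read, and recovered reads are not complete counts. Reads without molecular identifiers are not independent molecules.

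Entries with at least 1 RPM in at least 3 libraries (1114) were compared on log2(RPM + 1) in limma-trend (limma 3.58.1, R 4.3.3), a scale that understates changes of low entries; p-values were adjusted over all of them by Benjamini-Hochberg, with a threshold of 0.05. The prior had no finite degrees of freedom, so an entry's own replicate spread hardly enters its SE. p-values cover only the spread among these samples, possibly a technical one. Arm ratios used log2((5p RPM + 1)/(3p RPM + 1)), with exact sign-flip tests over libraries. Samples were treated as unpaired, since replicates of the same number showed no shared deviation (same-number correlations of deviations 0.005, -0.024 and 0.011). These values do not exclude that samples were prepared in pairs. Scripts were tested on simulated data. The families and lists were chosen with earlier results of these data known. Other entries were named by fixed rules: the 4 most abundant and the passing members of the intronic list, and the 2 entries most like each member above 100 RPM. Alternatives covered pseudocounts, filters, scaling, the prior, the replicate block, voom and each library left out.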

Additional observations from a re-analysis of the deposited data

Results flagged for a closer look

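The log2 5p to 3p ratio of miR-151 was -0.028 in knockout replicate 3, far from the other 5 libraries, which lay between 0.24 and 0.33. The gap to the nearest library was 0.757 of the whole range, above the critical value of 0.625 for 6 libraries of both genotypes together. Of the 4 hairpins examined this was the only one with such a library, and chance alone gives such a gap in about 1 of 20 groups. The same library held the lowest share of named entries (37.2%), whose part in the arm ratio was not tested.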

How the results depend on the processing

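The 7 entries above 10 RPM kept a negative log2 difference in all 17 alternatives, from -1.55 (miR-339-5p without knockout replicate 2) to -0.22 (miR-423-5p with centring on named entries of at least 10 RPM). The number passing as lower did not keep. Against 5 of the entries and 30 entries of the table, limma called 3 and 13 with a pseudocount of 0.5 RPM, 2 and 15 with no filter, 2 and 17 with a robust prior, 0 and 5 scaled to named entries, 3 and 16 after quantile normalization, and 1 and 8 after median centring. A minimum mean of 10 RPM gave 5 and 71 among 355 tested, which is fewer tests. Centring on named entries of at least 10 RPM, added after seeing the data, gave 0 and 3, and 43 entries higher against 24; it moved the median of all tested entries to 0.24. At an unadjusted limma p under 0.05, 6 of the entries were lower when scaled to named entries and 5 with that centring. Of all tested entries, 8.8% and 3.5% were lower at that level in the same order. Voom on the recovered reads, also added later, gave 4 and 26. With the replicate block, limma called 2 and 11; no other sign changed. With a library left out the counts ran from 0 to 4 for the entries, 0 to 18 for entries lower and 0 to 26 for entries higher. Without control replicate 3 limma called none of the table, although 53 were higher and 84 lower by unadjusted p (under 0.05), and without control replicate 2 none lower, although 11.5% of the tested entries were lower at that level. The cause of these changes was not tested. Of the low entries, miR-149-3p had -0.16 and turned to 0.011 scaled to named entries, 0.023 with median centring, 0.004 with quantile normalization, 0.35 with centring on named entries, and ran from -0.522 to 0.373 with a library left out, above 0 without knockout replicate 3 or control replicate 2; miR-339-3p had -0.49 and turned to 0.016 with centring on named entries. The mean log2 arm ratio of miR-423 was 0.33 to 0.49 with a library left out, that of miR-149 5.293 to 5.615 and that of miR-339 2.182 to 2.503, where 5 libraries cannot give an exact permutation p below 0.0625. With a pseudocount of 0.5 or 5 RPM the same 3 kept an exact permutation p of 0.0312; for miR-149 and miR-339 these alternatives were added after seeing the data. The miR-151 arm preference and the genotype differences of the miR-151 and miR-423 arm ratios kept their direction and stayed short of the threshold in every alternative run. For the miR-151 arm preference with a library left out this was fixed in advance, since 5 libraries cannot give an exact permutation p below 0.0625. The planned count model was not run, since the recovered reads hold no entry at 1 read. Depth limits the 4 entries below 10 RPM.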
